A study of Mus musculus with 27 samples.

Results

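Splenic B cells that received IL-4 together with an anti-CD40 antibody for 24 h were compared with B cells that received the antibody alone for 24 h. The comparison rests on 6 of the 27 RNA-seq libraries of the series, 3 per group, assigned to their groups by their labels. The comparison itself was chosen with earlier results of these data known. Both groups were primary splenic B cells of wild-type mice, described as naive and cultured with anti-CD40 (clone HM40-3) at 1 µg/mL. The treated group also received IL-4 at 12.5 ng/mL, and neither group received IL-21. The series holds 9 groups of 3 libraries: uncultured naive cells, and at each of 6 h and 24 h cells given anti-CD40 alone, with IL-4, with IL-21 at 50 ng/mL or with both cytokines. IL-4 was also added in 2 further settings used below, at 6 h without IL-21 and at 24 h with IL-21, at the same doses. The labels give no age or sex, do not say whether replicates came from separate mice or cultures, and list no culture without anti-CD40. Each p-value is therefore set by how far these libraries spread, and that spread may be technical.

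Anti-CD40 stands in for the CD40 ligand of helper T cells and drives B cells out of rest through NF-κB signalling. IL-4 is made mainly by follicular helper and type 2 helper T cells. It binds a receptor of the IL-4Rα chain and the common γ chain, and the Janus kinases JAK1 and JAK3 on these chains phosphorylate STAT6, which then acts in the nucleus as a transcription factor. In mouse B cells this pathway is known for inducing germline transcripts of the IgG1 and IgE constant genes, the step before class switching, and for raising CD23, MHC class II and the IL-4 receptor itself.

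Levels are in TPM, a relative unit scaled for transcript length that keeps no sequencing depth, so the depth of each library is unknown. Differences are log2 differences of TPM + 1, treated minus control, with their standard error, and they understate the change of genes with low values. They were tested in 12147 genes with limma over all 27 libraries, and a gene was called where the Benjamini-Hochberg adjusted p was under 0.05. IL-4 changed 3816 genes (31.4% of those tested), of which 1006 were higher (8.28%) and 2810 lower (23.1%). At least 2-fold changes were seen for 339 of the higher and 1729 of the lower genes. The excess of lower genes depended on the scale. All genes tested had a median difference of -0.31. When libraries were rescaled by the median of their gene ratios the median was -0.004, with 2303 genes higher (19%) and 1969 lower (16.2%), so that the share of higher calls went from 26.4% to 53.9%. Gene lists below are therefore read against the median of all genes.

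The 3 IL-4 libraries were not alike. Mitochondrially encoded transcripts made up 7.89%, 11.63% and 10.97% of replicates 1 to 3, and the median-of-ratios size factors were 1.123, 0.705 and 0.598, against 1.078, 0.946 and 1.252 in the control libraries. In replicates 2 and 3, but not in replicate 1, genes with long transcripts were lower than in the controls. The genes were split by their longest transcript into 4 groups of like size. In the group with the longest transcripts, the median difference from the control mean was -0.09 in replicate 1, -0.77 in replicate 2 and -0.97 in replicate 3, while in the group with the shortest it was -0.01, -0.06 and -0.16. Of the genes with the longest transcripts, 38.7% were called lower and 4.4% higher, against 8.3% lower and 11.3% higher among those with the shortest. What part transcript length has in the calls was not tested beyond removing its trend from each library, after which 70.3% of the calls remained and 1919 genes were higher and 1700 lower. Leaving out replicate 1 of the IL-4 group gave 5697 calls, with 1074 higher and 4623 lower, and 94.9% of the 3816 genes were among them. Across the rescaling, the removal of the length trend and the omission of each of the 6 libraries in turn, 604 genes stayed called as higher and 1131 as lower. A fit of the 6 libraries alone, which estimates each gene's spread from these groups only, called 913 genes, with 877 of the 3816 among them.

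**Figure D1:**
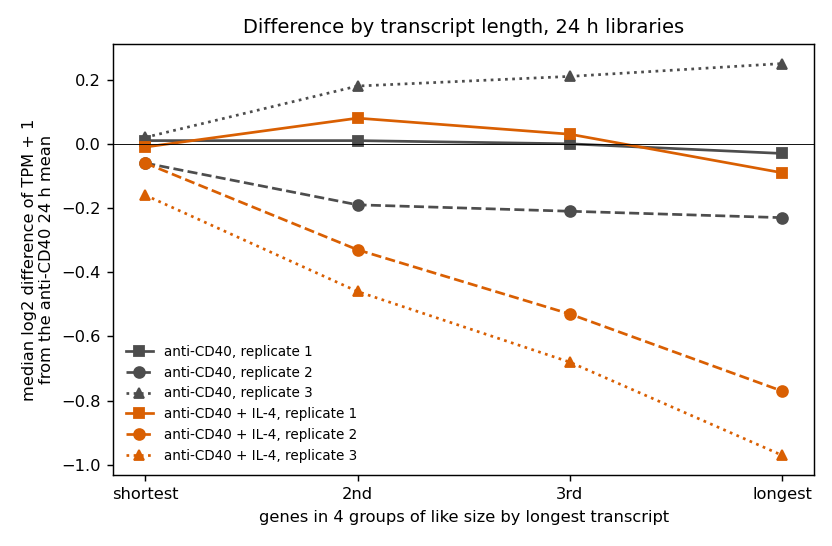
Median log2 difference of TPM + 1 from the mean of the 3 anti-CD40 libraries at 24 h (vertical axis), for genes in 4 groups by their longest annotated transcript (horizontal axis). Each line is 1 library, grey for anti-CD40 and orange for anti-CD40 with IL-4. Replicates 2 and 3 of the IL-4 group drop to -0.77 and -0.97 in the group with the longest transcripts, and replicate 1 stays at -0.09.

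The libraries carried the transcripts of B cells. All 8 B cell markers looked up, among them Ms4a1 and Cd79a, were above 1 TPM on average in both groups, with a summed level of 4513 to 5321 TPM in the control and 2138 to 3780 TPM in the IL-4 libraries. Markers of neutrophils were at or near 0, with S100a8, S100a9 and Elane at 0 in all 6 libraries. Summed markers of NK cells did not exceed 1.39 TPM in any of the 6 libraries, and those of macrophages and monocytes did not exceed 5.2 TPM. Erythroid and platelet markers summed to 35 to 40.6 TPM in the control and 14.6 to 23.2 TPM in the IL-4 libraries, and their part in any result was not tested. In bulk samples, fewer cells of a type and less RNA per cell cannot be told apart.

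The largest rises were in genes of cytokine feedback, the immunoglobulin constant genes used after IL-4 and a set of genes with other roles. Large rises and falls were picked only where the IL-4 and control libraries did not overlap, so their lack of overlap is no separate result. Nfil3 (ENSMUSG00000056749, chr13:52967209-52981073 on GRCm38), which encodes a basic leucine zipper transcription factor, stood at 0.401, 0.44 and 0.567 TPM in the controls and at 168, 66.2 and 48.3 TPM with IL-4. The groups were far apart, and replicate 1 of the IL-4 group was the highest library. The difference was 5.81 ± 0.28 (limma, adjusted p = 2.60e-12).

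Feedback regulators of cytokine receptors moved in both directions. Of 13 on a list of SOCS proteins and other feedback regulators 4 rose and 6 fell, and after median-of-ratios rescaling 5 rose and 3 fell. Over all genes 8.28% were called higher and 23.1% lower in the main values, and 19% and 16.2% after rescaling. The 3 falls after rescaling were near that share. Cish (ENSMUSG00000032578, chr9:107296026-107302784), an inhibitor induced by STAT5 and other STAT proteins, was at 0.151, 0.139 and 0.27 TPM in the controls and at 88.2, 37.1 and 27.7 TPM with IL-4, a difference of 5.28 ± 0.31 (adjusted p = 5.63e-11). Socs2, which restrains growth hormone and other receptors, was at 3.24, 1.44 and 3.04 TPM against 42.8, 38.1 and 59.2 TPM with IL-4 (3.76 ± 0.46, adjusted p = 2.38e-06). Socs1, which blocks Janus kinases directly, went from 1.46 ± 0.138 to 22.4 ± 14.6 TPM (SD, n = 3 libraries; 3.08 ± 0.32). Control and IL-4 libraries did not overlap for any of these genes, as the choice of large rises required. Every IL-4 library was high for Socs2, while replicate 1 was the highest for Cish. Socs3, an inhibitor of receptors that use gp130, rose by 2.24 ± 0.27 on the log2 scale. The 6 falls were of 0.75 to 1.74 and included the SOCS family members Socs4 (-0.75 ± 0.19), Socs5 (-1.74 ± 0.26) and Socs7 (-0.86 ± 0.27). Socs4 was not called after rescaling (adjusted p = 0.0881). With the length trend removed neither Socs4 (adjusted p = 0.551) nor Socs7 (adjusted p = 0.267) was called.

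Transcripts of 2 immunoglobulin constant genes rose. Ighg1 (ENSMUSG00000076614, chr12:113325240-113330523), the IgG1 heavy chain constant gene, was at 2.06, 1.13 and 3.05 TPM in the controls and at 250, 96.9 and 62 TPM with IL-4 (5.28 ± 0.42, adjusted p = 6.23e-09). Ighe (ENSMUSG00000087642, chr12:113269260-113273248), the IgE constant gene, was at 0.213, 0.108 and 0.118 TPM against 43.1, 14.6 and 11.2 TPM (4.15 ± 0.30, adjusted p = 1.49e-09). No IL-4 library overlapped the controls for either gene, as the choice of large rises required. Gene-level values do not separate germline transcripts from those of switched cells. Where 23.1% of all genes were called lower, 5 of 13 constant genes tested fell. Among these Ighd, the IgD constant gene of unswitched cells, was at 790, 557 and 826 TPM in the controls and at 401, 183 and 129 TPM with IL-4 (-1.75 ± 0.32, adjusted p = 0.000322), and the light chain gene Iglc2 fell by 1.23 ± 0.22. The latter shares reads with near-identical copies and was not called after rescaling (adjusted p = 0.104), when 1 constant gene fell. Of 12 tested genes of the class switch machinery 2 rose and 3 fell, where 8.28% of all genes were called higher and 23.1% lower. The falls were near that share. The rises were in Apex1 (an abasic site endonuclease, 1.33 ± 0.22) and Xrcc5 (Ku80, 0.36 ± 0.13). The falls were in the double-strand break repair genes Trp53bp1, Lig4 and Prkdc. With the length trend removed 4 rose and 0 fell, and the adjusted p of these 3 was 0.0538, 0.809 and 0.795. Without replicate 1 of the IL-4 group Xrcc5 was not called (adjusted p = 0.0998).

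Ccl17, a chemokine that draws CCR4-bearing T cells, was listed at 0.183, 0 and 0.337 TPM in the controls and at 8.43, 13.9 and 14 TPM with IL-4. The groups were apart, as the choice of large rises required, and here replicate 1 was the lowest IL-4 library. The difference was 3.46 ± 0.23 (adjusted p = 5.69e-10). Ccl22, a ligand of the same receptor, rose by 1.15 ± 0.36 (adjusted p = 0.0174), with overlapping groups and no call without replicate 1 of the IL-4 group (adjusted p = 0.102). Ccl5 (-2.15 ± 0.40) and Ccl4 (-1.24 ± 0.33), chemokines of inflammation, fell.

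Thy1 (ENSMUSG00000032011, chr9:44043384-44048579), a surface glycoprotein of mouse T cells and other cells, was listed at 0.0214, 0.328 and 0 TPM in the controls and at 46.4, 13.4 and 14.6 TPM with IL-4 (4.32 ± 0.35, adjusted p = 6.57e-09). All 3 IL-4 libraries were above all controls, as the choice of large rises required. Thy1 was 1 of 10 T cell markers looked up, and only it and Lck averaged 1 TPM or more with IL-4. In the same IL-4 libraries Cd3e was at 0.0107 to 0.043 TPM and Cd3g at 0. Trbc1 was at 0 in the controls and at 0, 0.561 and 0.586 TPM with IL-4. Cd8b1 was at 0.18, 0 and 0.107 TPM against 0.294, 0.226 and 0.188 TPM. Trac went the other way, from 1.05, 0.79 and 0.775 TPM to 0.79, 0.186 and 0.226 TPM. The T cell markers summed to 17 to 29.4 TPM in the controls, mostly Lck, and to 27.3 to 78.2 TPM with IL-4, mostly Thy1 and Lck.

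The other large rises were of varied function. Klhdc2, a substrate receptor of a ubiquitin ligase, was at 31.4, 23.3 and 28.1 TPM in the controls and at 255, 227 and 276 TPM with IL-4. This was the tightest of the large rises, at 3.16 ± 0.13 (adjusted p = 1.97e-13). Tmem176b, a membrane protein gene whose neighbour Tmem176a overlaps it, was at 12.9, 11.1 and 14.4 TPM against 173, 107 and 75.5 TPM (3.04 ± 0.40, adjusted p = 6.86e-06). Dhrs3, a retinaldehyde reductase, rose from 2.29 ± 0.727 to 41.2 ± 22.7 TPM, St7 from 1.57 ± 0.594 to 25.1 ± 11.9 TPM and Cst7, a cysteine protease inhibitor, from 0.405 ± 0.249 to 14 ± 9.73 TPM. Prkca, protein kinase C alpha, was listed at 0, 0 and 4.18 TPM in the controls and at 38.4, 11.4 and 9.62 TPM with IL-4 (3.32 ± 0.64). Of these 14 rises, 13 were also called in the fit of the 6 libraries alone, where Prkca was not (adjusted p = 0.0534). All 14 were called after rescaling, with the length trend removed and when any 1 of the 6 libraries was left out.

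**Figure D2:**
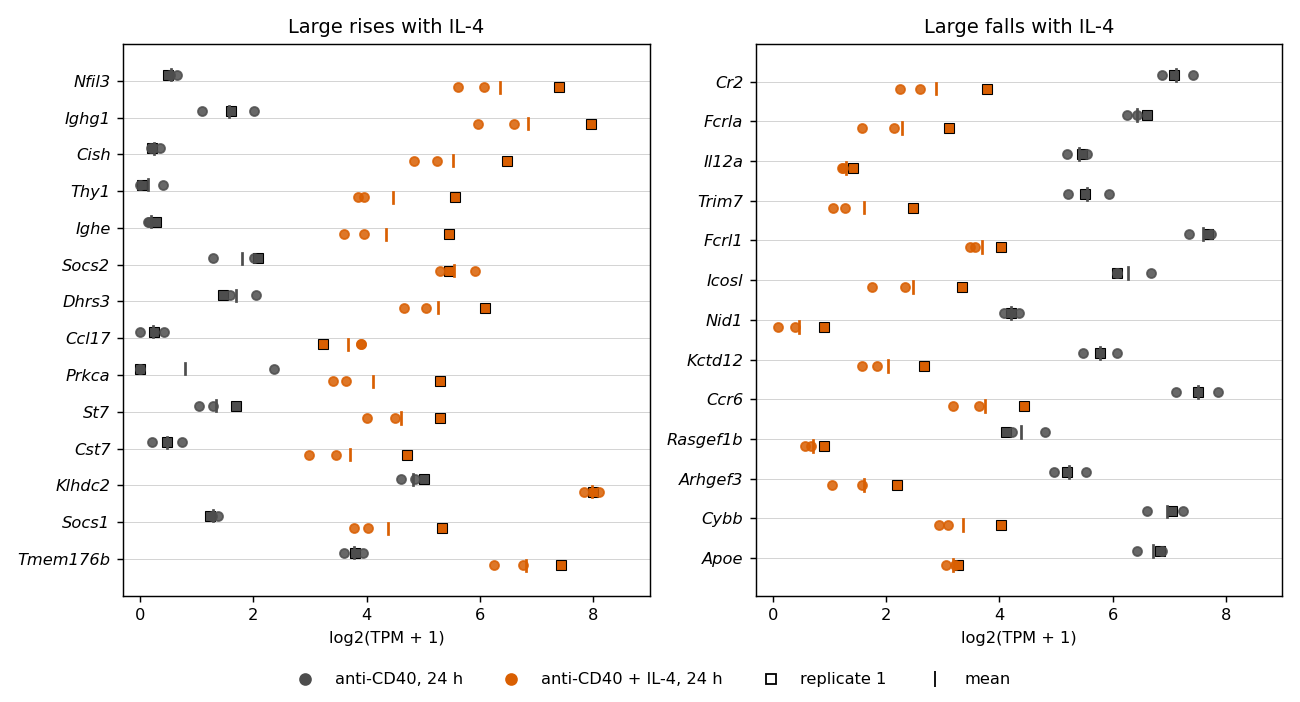
Level of each library in log2(TPM + 1) (horizontal axis) for the 14 largest rises (left) and 13 of the 14 largest falls (right) with IL-4 at 24 h. Grey points are the 3 anti-CD40 libraries, orange points the 3 libraries with IL-4, squares mark replicate 1 and ticks the group mean. The groups do not overlap for any of the genes shown, which the selection required, and replicate 1 of the IL-4 group is often its highest library.

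STAT6 is known to prefer sites made of TTC and GAA separated by 4 bases. The letters TTCNNNNGAA, which read the same on both strands, were searched in RefSeq promoter windows (GRCm38.p6, 250 bases before to 50 bases after each start site) of the large rises and of the other risers among the genes followed throughout, 17 in number. A window was found for 12 of them, some with several start sites, and 4 held the motif. They are shown because they are the promoters of genes that rose where such a match lies close to the start. Counted by gene, 8.01% of all genes with a window held the motif in at least 1 of them, as did 6.71% of the tested genes, 8.26% of those called higher and 5.75% of those called lower. Counted by window, it was in 6.95% of all 32851 windows and in 5.6% of those of tested genes. Among the large falls 1 of 13 genes with a window held it, and among the large rises 3 of 10. Sequences run 5′ to 3′ on the strand of the gene, with the motif in capitals. The windows are chr4:144892827-144893126 (plus strand) for Dhrs3, chr8:94810203-94810502 (plus strand) for Ccl17, chr6:17748920-17749219 (plus strand) for St7 and chr2:152828440-152828739 (minus strand) for Bcl2l1. A match is a description of the letters and not a measured binding site.
Dhrs3: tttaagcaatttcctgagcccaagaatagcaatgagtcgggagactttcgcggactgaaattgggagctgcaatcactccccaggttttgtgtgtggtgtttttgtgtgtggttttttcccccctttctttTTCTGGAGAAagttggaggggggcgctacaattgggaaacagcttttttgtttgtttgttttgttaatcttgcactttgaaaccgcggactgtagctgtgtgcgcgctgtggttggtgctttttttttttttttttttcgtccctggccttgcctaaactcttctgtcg
Ccl17: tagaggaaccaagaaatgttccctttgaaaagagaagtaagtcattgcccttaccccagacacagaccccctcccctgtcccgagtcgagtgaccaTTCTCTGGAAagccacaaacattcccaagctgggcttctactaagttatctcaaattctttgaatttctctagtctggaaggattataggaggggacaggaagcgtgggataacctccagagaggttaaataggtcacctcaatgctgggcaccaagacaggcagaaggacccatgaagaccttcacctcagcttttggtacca
St7: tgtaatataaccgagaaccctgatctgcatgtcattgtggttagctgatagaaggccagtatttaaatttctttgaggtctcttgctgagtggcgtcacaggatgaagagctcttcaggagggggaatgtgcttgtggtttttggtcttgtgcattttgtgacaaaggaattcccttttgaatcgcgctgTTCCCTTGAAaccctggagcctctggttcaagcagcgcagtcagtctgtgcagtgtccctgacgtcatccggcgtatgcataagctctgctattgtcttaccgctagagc
Bcl2l1: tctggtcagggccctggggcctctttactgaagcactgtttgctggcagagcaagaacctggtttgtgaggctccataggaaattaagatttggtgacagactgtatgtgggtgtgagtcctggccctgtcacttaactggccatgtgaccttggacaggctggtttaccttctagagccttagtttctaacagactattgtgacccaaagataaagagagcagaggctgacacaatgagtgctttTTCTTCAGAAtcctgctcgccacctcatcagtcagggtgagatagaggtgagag

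The motif began 119 bases before the start site in Dhrs3, 154 before it in Ccl17, 60 before it in St7 and 4 before it in Bcl2l1. Bcl2l1, which encodes the survival protein BCL-XL, rose by 1.00 ± 0.31 (adjusted p = 0.0182), from 6.77, 6.36 and 11 TPM to 30.7, 12 and 12.3 TPM. Without replicate 1 of the IL-4 group, the highest library, it was not called (adjusted p = 0.103).

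Of 15 tested genes on a list of IL-4 and STAT6 targets 10 rose and 0 fell, with a list median of 1.15 against -0.31 over all genes. In all genes the share called higher was 8.28%. The count was 12 after rescaling, 8 without replicate 1 of the IL-4 group and 7 in the fit of the 6 libraries alone. The members without a call include well-known targets. Fcer2a, the gene of CD23, was at 878, 748 and 1021 TPM in the controls and at 1676, 720 and 461 TPM with IL-4 (-0.09 ± 0.58, adjusted p = 0.933). The IL-4 libraries lay on both sides of the controls. Il4ra, the IL-4 receptor alpha chain, was at 69.4, 56.5 and 84.7 TPM against 178, 91.9 and 79.4 TPM (0.65 ± 0.45, adjusted p = 0.294). Only replicate 1 stood far above the controls, and after rescaling the gene was called (1.12, adjusted p = 0.0315). Il4i1, the IL-4-induced amino acid oxidase, showed the same order without overlap (482, 379 and 578 TPM against 1303, 738 and 653 TPM; 0.86 ± 0.42, adjusted p = 0.125) and was called after rescaling (adjusted p = 0.00626). The MHC class II gene H2-Aa was at 360, 301 and 276 TPM against 247, 253 and 242 TPM (-0.33 ± 0.35, adjusted p = 0.518).

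Genes of the IL-4 receptor and its signalling, phosphatases among them, were lower or without a call in the main values. Of 18 tested genes on a list of the IL-4 receptor and its signalling 0 rose and 11 fell, with a median of -1.11, where 23.1% of all genes were called lower and their median was -0.31. Janus kinase 3 (Jak3) was at 17, 15.4 and 27.8 TPM in the controls and at 10.6, 4.63 and 4 TPM with IL-4 (-1.57 ± 0.38, adjusted p = 0.0035). Jak1 differed by -1.26 ± 0.29 (adjusted p = 0.00211) and the phosphatase gene Ptpn6 by -1.50 ± 0.36 (adjusted p = 0.00295). Stat6 itself was at 4.32, 2.09 and 10.9 TPM against 1.92, 1.13 and 0.538 TPM (-1.45 ± 0.43, adjusted p = 0.0141). Its call rested on single libraries, with an adjusted p of up to 0.133 when 1 was left out. After rescaling 2 of the 18 rose, Il4ra (1.12) and Stat5a (0.81), and 8 fell. The fit of the 6 libraries alone called 2 of them lower.

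Among 21 tested cytokine receptor chains 10 fell, 1 rose and 10 had no call, where 23.1% of all genes were called lower. Il4ra, Il2rg and Il13ra1 are also on the list of the IL-4 receptor and its signalling, and Il2rg is 1 of the 10 falls. The riser was Il5ra, the IL-5 receptor alpha chain, at 9.83, 8.12 and 10.3 TPM in the controls and 38.2, 42.4 and 57.8 TPM with IL-4 (2.16 ± 0.16, adjusted p = 2.30e-09). All IL-4 libraries were high. After rescaling 9 fell and 2 rose, and the fit of the 6 libraries alone called 5 lower. Il9r (-2.27 ± 0.33), Il2ra (-1.94 ± 0.22) and Ifngr1 (-1.84 ± 0.37), receptor chains for IL-9, IL-2 and interferon-γ, were the largest of these falls. Among 10 tested cytokine and TNF ligand genes 0 rose and 6 fell. Il12a, the p35 subunit of IL-12, went from 43.2, 35.7 and 45.6 TPM to 1.65, 1.37 and 1.32 TPM (-4.11 ± 0.24, adjusted p = 5.63e-11). Ltb, the lymphotoxin-β gene, went from 784, 645 and 745 TPM to 107, 91.2 and 79.5 TPM (-2.96 ± 0.23, adjusted p = 4.69e-09). In both genes the 3 IL-4 libraries lay close together, far under the controls, so neither fall rested on a single library.

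The largest fall was in Cr2 (ENSMUSG00000026616, chr1:195136811-195176716), the gene of complement receptors CD21 and CD35 that lower the threshold of B cell activation. It was at 134, 116 and 171 TPM in the controls and at 12.8, 5.03 and 3.76 TPM with IL-4 (-4.25 ± 0.31, adjusted p = 1.56e-09). The groups were far apart, and the choice of large falls required that they not overlap. The Fc receptor-like genes Fcrla (-4.15 ± 0.43) and Fcrl1 (-3.90 ± 0.23) fell too, with Fcrl1 at 206, 163 and 213 TPM in the controls and 15.4, 10.9 and 10.2 TPM with IL-4. Other large falls were the ubiquitin ligase gene Trim7 (-3.95 ± 0.35), Kctd12 (-3.75 ± 0.24), the basement membrane gene Nid1 (-3.75 ± 0.27), Rasgef1b (-3.67 ± 0.42), the guanine nucleotide exchange factor Arhgef3 (-3.63 ± 0.22), the NADPH oxidase subunit Cybb (-3.62 ± 0.41) and Apoe (-3.53 ± 0.24). All 14 largest falls were called after rescaling (-3.09 to -3.83), with the length trend removed (-3.12 to -4.06), in the fit of the 6 libraries alone and when any 1 library was left out. The median of their longest transcripts was 3076 bases, against 2981 over all genes and 2409 for the 14 rises.

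Receptors that place B cells in tissue were among the falls. Ccr6, which guides B cells towards CCL20, was at 182, 138 and 232 TPM in the controls and at 20.7, 11.4 and 8.04 TPM with IL-4 (-3.75 ± 0.39, adjusted p = 2.82e-07). Itga4, the integrin α4 chain, fell by 2.62 ± 0.28, and Ccr7, which guides cells to T zones, fell by 2.24 ± 0.51. S1pr3, a receptor for sphingosine 1-phosphate, went the other way, from 0.966, 0.757 and 0.972 TPM to 24.9, 9.24 and 5.44 TPM (2.66 ± 0.32, adjusted p = 1.99e-06). Of the 15 trafficking genes tested 8 fell and 2 rose, in the main values as after rescaling. Over all genes 23.1% fell and 8.28% rose in the main values, and 16.2% fell and 19% rose after rescaling.

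Costimulatory genes split. Icosl, the ligand of ICOS on helper T cells, was at 66.9, 66.4 and 101 TPM in the controls and at 9.13, 4.01 and 2.35 TPM with IL-4 (-3.81 ± 0.37, adjusted p = 9.44e-08), and Cd80 fell by 2.10 ± 0.21. Its partner Cd86, a known IL-4 target, rose from 1.77, 2.91 and 3.15 TPM to 4.31, 6.52 and 6.03 TPM (0.88 ± 0.21, adjusted p = 0.00343). In the fit of the 6 libraries alone Cd86 was not called (adjusted p = 0.121). Cd83, an activation marker, rose from 410 ± 27.7 to 785 ± 80.9 TPM and Slamf7 by 0.92 ± 0.17. Of 15 tested 4 rose, where 8.28% of all genes were called higher, and 4 fell, a share near the 23.1% called lower. Genes of MHC class II presentation did not rise. Of 16 tested 0 rose and 8 fell, where 23.1% of all genes were called lower. Among the falls were the peptide-loading inhibitor H2-Ob (-1.40 ± 0.34), the ubiquitin ligase March1 (-1.74 ± 0.31), and the regulators Rfx5 (-1.56 ± 0.28) and Ciita (-0.98 ± 0.32). The groups overlapped for Ciita, and it was not called with the length trend removed (adjusted p = 0.0884). The classical class II chains were not among the called genes, apart from H2-Eb2 (-1.21 ± 0.24).

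Genes of the mature B cell state were lower as a group. Of 17 tested 0 rose and 15 fell, with a median of -1.72, where 23.1% of all genes were called lower. After rescaling 12 fell with a median of -1.25. The fit of the 6 libraries alone called 6. Besides Cr2 the largest falls were in Cd72 (292, 235 and 351 TPM against 93.8, 54.2 and 37.9 TPM; -2.30 ± 0.29), Cd24a (-2.21 ± 0.16) and Ikzf3, which encodes the transcription factor Aiolos (-2.11 ± 0.33). Pax5, the B cell identity factor, was at 52.3, 47 and 82.1 TPM against 55.6, 19.2 and 12.3 TPM (-1.27 ± 0.38, adjusted p = 0.0138). Replicate 1 of the IL-4 group lay among the controls, and the call was lost with the length trend removed (adjusted p = 0.0784). The 2 members without a call were Ms4a1 and Cd79b, which are named here after their values were seen. Bcl6, the master regulator of germinal centre B cells, was at 20.2, 20.1 and 27.8 TPM in the controls and at 5.84, 2.29 and 1.35 TPM with IL-4 (-2.64 ± 0.25, adjusted p = 8.15e-08). The groups did not overlap. Of the 10 tested germinal centre genes 3 fell and 0 rose, a share near the 23.1% of all genes called lower. Plasma cell genes gave 2 rises and 2 falls among 11, where 8.28% of all genes were called higher and 23.1% lower. Irf4 was at -1.26 ± 0.33, Prdm1 at -0.45 ± 0.21 (adjusted p = 0.115) and Xbp1 at 0.45 ± 0.37 (adjusted p = 0.378). The call of Irf4 was lost in the fit of the 6 libraries alone (adjusted p = 0.142), and its adjusted p reached 0.0614 when 1 library was left out.

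Targets and regulators of CD40 and NF-κB signalling were also lower. Of 19 tested 13 fell and 1, Cd83, rose, with a median of -1.04, where 23.1% of all genes were called lower. After rescaling 10 fell, and the fit of the 6 libraries alone called 1 lower. The inhibitor gene Nfkbia was at 460, 398 and 521 TPM in the controls and at 259, 129 and 90.3 TPM with IL-4 (-1.65 ± 0.23, adjusted p = 1.48e-05). Nfkbie (-1.89 ± 0.30), Relb (-1.59 ± 0.33) and Tnfaip3, the A20 gene (-1.62 ± 0.41), fell as well. All 3 IL-4 libraries were below all controls for Nfkbia, with replicate 1 the nearest to them. Interferon-stimulated genes gave 7 falls and 0 rises among 17, where 23.1% of all genes were called lower. After rescaling 6 fell and 1, Bst2, rose (adjusted p = 0.0163). The falls were led by the guanylate-binding protein genes Gbp2 (-2.75 ± 0.20) and Gbp3 (-2.29 ± 0.17).

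Genes of cell division and growth moved against the trend of all genes. Of 23 tested genes of S phase and DNA replication 14 rose and 0 fell, with a median of 1.07, and of 17 genes of G2 and mitosis 7 rose and 0 fell, with a median of 0.46. Over all genes 8.28% were called higher. After rescaling 18 and 11 rose, where 19% of all genes were called higher. The fit of the 6 libraries alone called 6 and 4. Tyms, thymidylate synthase, was at 40.6, 36.4 and 36.3 TPM in the controls and at 110, 154 and 203 TPM with IL-4 (1.97 ± 0.22, adjusted p = 5.83e-07). The replication helicase subunits Gins1 (1.83 ± 0.24) and Gins2 (1.68 ± 0.24) rose with it. Cdk1, the mitotic kinase, went from 23.1, 19.3 and 28.2 TPM to 58.9, 70.8 and 97.5 TPM (1.63 ± 0.27, adjusted p = 8.39e-05). All IL-4 libraries were high for these genes, and replicate 1 was not the highest for Tyms or Cdk1. Of 20 MYC targets and ribosome biogenesis genes 9 rose and 0 fell, led by Nop58 (1.54 ± 0.21) and Srm (1.33 ± 0.31), while Myc was at 61.6, 41.4 and 63.2 TPM against 101, 39.1 and 22.5 TPM (-0.28 ± 0.34, adjusted p = 0.584). Without replicate 1 of the IL-4 group 7 of the 20 rose and 1, Myc itself, fell (-0.85, adjusted p = 0.0128). In that fit 1074 of all 12147 genes were called higher and 4623 lower.

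Genes that hold cells at rest were lower. Of 12 tested quiescence genes 9 fell and 0 rose, in the main values as after rescaling, where 23.1% and 16.2% of all genes were called lower. The list median was -1.38 in the main values. The fit of the 6 libraries alone called 3. Btg2, an antiproliferative gene, was at 64.1, 47 and 79.6 TPM in the controls and at 16.6, 7.47 and 5.85 TPM with IL-4 (-2.65 ± 0.27, adjusted p = 1.83e-07). Txnip (-2.02 ± 0.28), Btg1 (-2.01 ± 0.27) and Foxo1 (-1.72 ± 0.30) fell too. Of 15 tested G1 cyclins, CDKs and their inhibitors 2 rose, 5 fell and 8 had no call. Among the brakes on the cell cycle, Cdkn1b, the p27 gene, fell by 1.48 ± 0.20 and Rbl2 by 1.82 ± 0.27, whereas Cdkn1a, the p21 gene, rose by 0.67 ± 0.25 (adjusted p = 0.0427). The G1 kinase gene Cdk4 rose by 0.88 ± 0.18, and the other, Cdk6, fell by 1.20 ± 0.41 (adjusted p = 0.0301). The groups overlapped for Cdk6, and it was not called with the length trend removed (adjusted p = 0.278). After rescaling 4 of the 15 rose and 5 fell.

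Metabolic and secretory genes rose in part. Idi1, an isomerase of the cholesterol pathway, was at 66.2, 58.6 and 65.5 TPM in the controls and at 282, 343 and 456 TPM with IL-4 (2.46 ± 0.16, adjusted p = 3.58e-10). It and 3 other cholesterol synthesis genes of 20 rose and 0 fell, and after rescaling 11 rose. Without replicate 1 of the IL-4 group 3 rose and 1 fell. Of 16 genes of endoplasmic reticulum chaperones and stress 7 rose and 0 fell, among them Manf (45.6, 42.5 and 54.1 TPM against 169, 145 and 176 TPM; 1.77 ± 0.19), Sdf2l1 (1.85 ± 0.26) and Pdia6 (1.48 ± 0.19). Without that replicate 3 of these 16 fell. Of 17 glycolysis genes 3 rose and 0 fell, led by the lactate carrier Slc16a1 (1.48 ± 0.18) and Ldha (1.35 ± 0.27). Without that replicate 3 rose and 5 fell. In the fit without it 1074 of all 12147 genes were called higher and 4623 lower, a larger share of falls than in any of these lists. In the main values 8.28% of all genes were called higher. Cd36, a fatty acid and lipoprotein receptor, was at 160, 165 and 164 TPM in the controls and at 14.1, 20.8 and 21.5 TPM with IL-4 (-3.07 ± 0.40, adjusted p = 5.54e-06), with both groups tight.

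**Figure D3:**
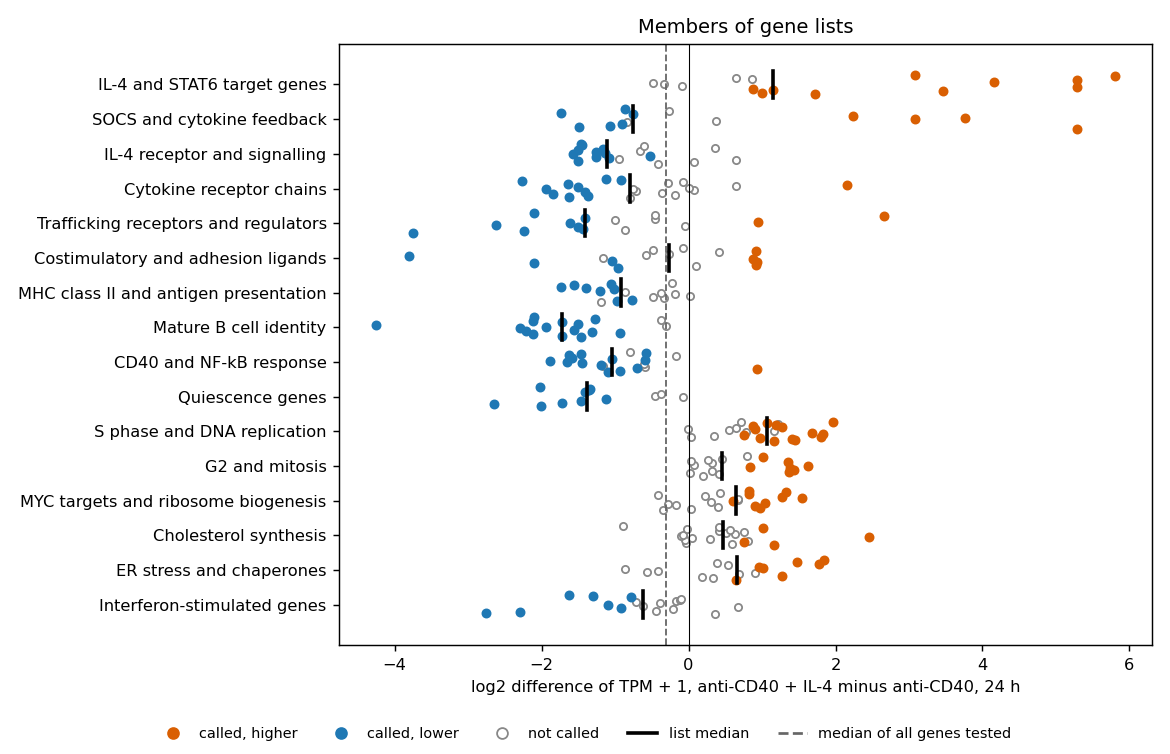
Log2 difference of TPM + 1 between anti-CD40 with IL-4 and anti-CD40 alone at 24 h (horizontal axis) for the members of 16 gene lists. Each circle is a gene, filled orange where called higher, filled blue where called lower and open where not called. Bars are list medians and the dashed line is the median of all genes tested, at -0.31. The lists of IL-4 targets, division and growth lie to the right of that line, and those of mature B cell identity, NF-κB response and quiescence to its left.

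Without overlap between the 3 IL-4 and the 3 control libraries, 10.1% of all genes were higher and 22.8% lower. Survival and death genes were called in both directions in equal number, where 31.4% of all genes were called. Of 11 anti-apoptotic genes 3 rose and 3 fell, and 5 rose and 2 fell after rescaling, with Bcl2, the founding family member, at -1.16 ± 0.24 and Mcl1 at 330, 245 and 327 TPM against 142, 115 and 106 TPM (-1.30 ± 0.86, adjusted p = 0.266). Of 11 pro-apoptotic genes 3 rose and 3 fell, the latter led by Bbc3, the PUMA gene (-2.23 ± 0.53). The standard error of Mcl1 is estimated from all 27 libraries, and its groups at 24 h did not overlap. In the fit of the 6 libraries alone it was called lower (adjusted p = 0.0186).

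IL-4 was added to anti-CD40 at 6 h as well, in other libraries, and there 200 genes were higher (1.65%) and 291 lower (2.4%). Of the 14 large rises at 24 h, 11 were called higher at 6 h, and of the 14 large falls 10 were called lower. Nfil3 (5.57 ± 0.28), Cish (5.71 ± 0.31) and Socs1 (3.99 ± 0.32) had differences at 6 h near those at 24 h. The test of the difference between the times called 873 genes, of which 257 were higher at 24 h than at 6 h (2.12%) and 616 lower (5.07%). The balance depended on the scale, with 947 higher and 733 lower after rescaling, and 606 higher and 496 lower with the length trend removed. Socs2 had no call at 6 h (-0.60 ± 0.46, adjusted p = 0.746), with 3.7 ± 1.43 TPM without and 2.03 ± 0.334 TPM with IL-4, and its effect was larger at 24 h by 4.35 ± 0.65 (adjusted p = 0.000434). Cr2 showed 26.9 ± 3.92 TPM without and 37.2 ± 12.1 TPM with IL-4 at 6 h, and its effect at 24 h was lower by 4.66 ± 0.44 (adjusted p = 2.83e-06). The control level of Cr2 also differed between the times, from 26.9 TPM at 6 h to 140 ± 28.1 TPM at 24 h, against 326 ± 47.6 TPM in naive cells.

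For some genes the effects at 6 h and 24 h had opposite signs. Vim, the vimentin gene, was higher with IL-4 at 6 h (1.66 ± 0.28) and at 24 h stood at 48.9, 52.5 and 63.8 TPM without and 45.8, 18.1 and 13.4 TPM with IL-4 (-1.25 ± 0.28). The effects differed by -2.91 ± 0.40 (adjusted p = 0.000183). Itgb3, the integrin β3 chain, had effects of 1.90 ± 0.39 at 6 h and -1.55 ± 0.39 at 24 h, which differed by -3.44 ± 0.55 (adjusted p = 0.000727). Cd86 rose at both times, by less at 24 h than at 6 h (1.93 ± 0.21), with a difference of -1.05 ± 0.30 (adjusted p = 0.0377).

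With IL-21 present, IL-4 changed fewer genes at 24 h, with 270 higher (2.22%) and 550 lower (4.53%). The effects with and without IL-21 differed for 705 genes, 404 with a higher effect in the presence of IL-21 (3.33%) and 301 with a lower one (2.48%). Here too the balance turned over, to 587 higher and 759 lower after rescaling and to 523 higher and 598 lower with the length trend removed. Of the 14 large rises 10 were also called with IL-21, and of the 14 large falls 14 were. Ccl17 was listed at 0 in all 3 libraries with anti-CD40 and IL-21 at 24 h and at 0.199 ± 0.216 TPM with both cytokines. Its IL-4 effect was lower by 3.21 ± 0.33 (adjusted p = 2.88e-06). Ighe had an effect of 1.47 ± 0.30 with IL-21, lower by 2.68 ± 0.43 (adjusted p = 0.000435), whereas Ighg1 had effects of 4.99 ± 0.42 with and 5.28 ± 0.42 without IL-21, a difference of -0.29 ± 0.60 (adjusted p = 0.819). For Ighe the level with both cytokines was 1.98 ± 0.632 TPM, against 23 ± 17.5 TPM with IL-4 and without IL-21.

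Il5ra had no call for IL-4 with IL-21 present (3.44 ± 0.276 TPM without and 3.43 ± 0.0723 TPM with IL-4; difference of the effects -2.17 ± 0.23, adjusted p = 3.80e-06). Tmem176b had no call there either, with 28.9 ± 3.86 and 27.6 ± 2.34 TPM (-3.10 ± 0.57, adjusted p = 0.00169). Slpi, a protease inhibitor gene, showed the reverse. It was at 0.154, 0 and 0.0708 TPM with anti-CD40 alone and 8.41, 5.13 and 4.71 TPM with IL-4, and at 17.1 ± 1.65 TPM with IL-21 and 701 ± 63.2 TPM with both cytokines (difference 2.59 ± 0.45, adjusted p = 0.001). Bcl6 fell with IL-4 in the absence of IL-21. With IL-21 it had no call, at 30.1 ± 6.59 TPM without and 19.9 ± 0.174 TPM with IL-4, and its effects differed by 2.09 ± 0.36 (adjusted p = 0.000876). Cd86, higher with IL-4 in the absence of IL-21, was lower with IL-4 in its presence. There it was at 30.2 ± 7.85 TPM without and 15.8 ± 0.576 TPM with IL-4 (-0.86 ± 0.21, adjusted p = 0.013). Its effects differed by -1.74 ± 0.30 (adjusted p = 0.00101). The treated libraries of the 24 h comparison enter both tests of a difference, so their low values for long transcripts enter these differences too.

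**Figure D4:**
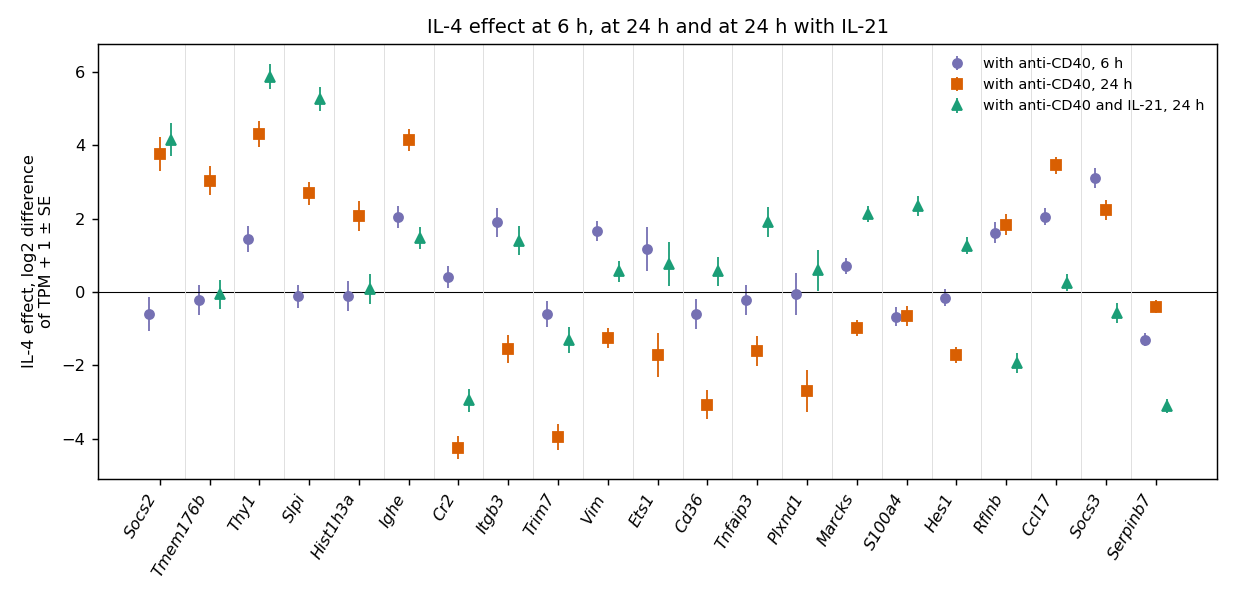
IL-4 effect as log2 difference of TPM + 1 ± standard error (vertical axis) for genes among those with the largest differences of the effect between times or with IL-21. Circles are the effect with anti-CD40 at 6 h, squares at 24 h and triangles at 24 h with IL-21 in addition. Socs2 lies at -0.60 at 6 h and 3.76 at 24 h, and Ccl17 at 3.46 without and 0.25 with IL-21.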

How the data were processed

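RNA of 27 libraries was measured by poly(A)-selected RNA-seq. The deposited table gives 35604 genes in TPM, a unit read from the values, which sum to 766384 to 825365 per library. Per the submitters' processing notes, Salmon 1.9.0 and GRCm38 were used, and per the deposited table the values carry no read counts. Depth is unknown, and no confidence interval for counting error can be given. Gene IDs were matched to GENCODE M21 (35301 of them had a symbol), and promoter sequences are from RefSeq (GRCm38.p6).

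A gene was tested where 3 or more of the 27 libraries reached 1 TPM, as 12147 did (10583 protein-coding genes and 1304 pseudogenes). The values were not rescaled and entered as log2(TPM + 1). A model with 1 mean for each of the 9 groups was fitted with limma 3.58.1 in R 4.3.3, with a variance trend and 18 residual degrees of freedom. P-values were adjusted by the Benjamini-Hochberg method over all genes, and a gene was called under 0.05. The script was tested on simulated data. Contrasts were IL-4 at 24 h, at 6 h and at 24 h with IL-21, and the differences between the first and each of the others.

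Genes named are the 14 largest rises and falls (the higher group averaging 5 TPM or more, no overlap), the 6 largest in each direction for each difference, a panel of 25 genes, and for each of 32 lists up to 4 called members by size with up to 2 of the opposite direction. The comparison, the panel and the lists were chosen with earlier results of these data known, and a list's counts are descriptions. Some genes that the rule selects are not reported here. Socs4, Socs5, Socs7 and Bst2 fall outside the rule and were chosen after their values were seen. No label says that replicate numbers mark shared cultures. Libraries with the same number had correlations of their deviations between -0.209 and 0.268 over the 3 pairs at 24 h (1 pair over 0.1), between -0.209 and 0.382 over the 18 pairs of the difference between times (12 over 0.1) and between -0.258 and 0.41 over the 18 of the difference with IL-21 (3 over 0.1). The best-correlated library outside a library's own group carried the same number for 3 of 6 libraries at 24 h. This was so for 7 of 12 in the difference between times and 9 of 12 in the difference with IL-21. The main fit did not take the numbers to pair libraries, and fits with the number as a block are given below. Whether the numbers mark shared cultures was not tested. The length trend was removed per library with a lowess line on the log10 longest transcript, for 12100 genes, an alternative chosen after seeing the data.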

Additional observations from a re-analysis of the deposited data

Results flagged for a closer look

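The IL-4 effect at 24 h differed from that at 6 h for 873 genes by the test of the difference. The largest differences towards a higher effect at 24 h were in Socs2 (4.35), Tmem176b (3.26), Thy1 (2.88), Slpi (2.81), Hist1h3a (2.18) and Ighe (2.09), in log2 of TPM + 1. The histone gene Hist1h3a was at 1.47 ± 0.351 TPM without and 9.69 ± 3.33 TPM with IL-4 at 24 h, and reads of such genes can be shared with near-identical copies. The largest differences towards a lower effect at 24 h were in Cr2 (-4.66), Itgb3 (-3.44), Trim7 (-3.34), Vim (-2.91) and Ets1 (-2.90). Ets1 varied widely, at 5.95, 0.392 and 10.9 TPM without and 0.324, 1.11 and 0.126 TPM with IL-4 at 24 h.

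At 24 h the IL-4 effect differed with IL-21 present for 705 genes. The effect was higher with IL-21 for Cd36 (3.63), Tnfaip3 (3.53), Plxnd1 (3.29), Marcks (3.10), S100a4 (3.01) and Hes1 (2.98). For Cd36 the level was 1.52 ± 1.66 TPM with IL-21 and 2.33 ± 0.99 TPM when IL-4 was added to it. Tnfaip3 was at 5.22 ± 3.62 TPM with IL-21 and 19.1 ± 2.58 TPM with both. Marcks was at 8.01 ± 1.04 and 38 ± 1.72 TPM, and S100a4 at 12.5 ± 3.41 and 67 ± 5.25 TPM. Plxnd1 was listed at 0 in all 3 libraries with anti-CD40 and IL-21 at 24 h, so no fall could be seen there. With IL-4 added to these it was at 0, 0 and 2.43 TPM, without a call (0.59 ± 0.57, adjusted p = 0.652). The effect was lower with IL-21 for Rflnb (-3.78), Ccl17 (-3.21), Tmem176b (-3.10), Socs3 (-2.81), Serpinb7 (-2.71) and Ighe (-2.68). Socs3 stood at 653 ± 131 TPM with IL-21 and at 435 ± 20.9 TPM when IL-4 was added to it. Without IL-21 these levels were 1.15 ± 0.608 and 9.44 ± 4.33 TPM.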

How the results depend on the processing

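At 24 h the number of genes called for IL-4 was 3816. It was 8553 with library weights and 913 in the fit of the 6 libraries alone. With the replicate number as a block the latter fit called 50, and 3008 genes had an unadjusted p under 0.05. The weights of replicates 1 to 3 were 0.11, 8.59 and 0.46 in the IL-4 group and 6.87, 0.5 and 0.76 in the control. The weighted count at 24 h thus rests mainly on replicate 2 of the IL-4 group and replicate 1 of the control. The weighted counts of the differences below use the same weights. Leaving out 1 library gave 2409 to 5697, with the lowest counts without replicate 3 of the control (2409), replicate 3 of the IL-4 group (2452) and replicate 2 of the IL-4 group (2514). The replicate block with all 27 libraries gave 4191 calls. For the difference from 6 h the count of 873 became 6048 with weights, 1680 after rescaling, 3661 after rescaling without replicate 1 of the IL-4 group, 572 without a filter and 405 to 3887 leaving out 1 library. For the difference with IL-21 the count of 705 became 5623 with weights, 1346 after rescaling, 2885 after rescaling without replicate 1, 1121 with the length trend removed and 501 to 2460 leaving out 1 library. Among the fits that left out 1 library, the highest of these counts were found without replicate 1 of the 24 h IL-4 group. The cause was not tested. Of 167 named genes 155 were called at 24 h, where 31.4% of all genes were called. Large changes and list members were picked from called genes by size, so this number follows from the choice. Of the 155 genes 120 kept their call under each alternative other than those fitted on the 6 libraries alone, and 27 under every alternative. The choice favoured large changes, so these numbers do not stand for all called genes. Creb3l2 changed sign with the length trend removed, from -0.57 to 0.06. The replicate block ended no call of a named gene when all 27 libraries were fitted, and added a call for Il4i1 (adjusted p = 0.0251) and Il21r (0.0230), with 11 rather than 10 of 15 IL-4 targets higher. TPM keeps no depth, so the precision of low values could not be derived.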
